A study of Mus musculus with 15 samples.

Results

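The gene of tumour necrosis factor, 3 genes of its receptor superfamily and 1 gene of a receptor adaptor were followed in mouse macrophages exposed to mineral particles. The genes were chosen by name: Tnf, Tnfrsf1a, Tnfrsf1b, Tnfrsf9, Traf1 and Traf2. Of these 6, 5 were measured among 10653 genes, and all 5 passed the filter on low values that 10616 genes passed; Traf1 was not analysed here. Tnfrsf9 passed that filter only through the exposed groups, since its level was under 0.5 in every untreated library. The cells were MPI cells, a self-renewing mouse macrophage line that grows in GM-CSF and is used as a model of alveolar macrophages, although the labels give its origin as fetal liver of female C57BL6/J mice. All groups, the untreated one included, were grown with GM-CSF, and all exposures lasted 24 h. Untreated cells were compared with cells given 9 µg/cm2 of riebeckite asbestos, 40 µg/cm2 of riebeckite cleavage fragments, 5 µg/cm2 of tremolite asbestos or 60 µg/cm2 of tremolite cleavage fragments. The titles of the control samples call them untreated and their labels list no agent, while a description given to all samples mentions a vehicle; whether these cells received one is not settled by the labels. Asbestos is the fibrous form of a mineral and cleavage fragments are the non-fibrous form. The doses were matched by surface area, so mass per area differed between the forms and also between the minerals. Neither form nor mineral can be told apart from mass here. Each of the 5 groups had 3 RNA-seq libraries of poly(A) RNA. Whether the 3 are separate cultures is not stated in the labels, and every p-value below therefore rests on a spread among libraries that may be technical.

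TNF is a cytokine that macrophages make as a membrane protein and release by proteolytic shedding. TNF receptor 1, encoded by Tnfrsf1a, is found on most cell types and can signal through NF-kB or start cell death, whereas TNF receptor 2, encoded by Tnfrsf1b, lacks a death domain and is prominent on leukocytes. Tnfrsf9 encodes 4-1BB (CD137), a costimulatory receptor best known from activated T cells and also found on myeloid cells, and Traf2 encodes an adaptor that links these receptors to ubiquitin ligases and kinases. In macrophages exposed to fibres, TNF is one of the inflammatory mediators that has been studied most.

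Levels are taken as FPKM, fragments per kilobase of transcript scaled to the library's mapped fragments; the tables do not name their unit, and the authors' software StringTie writes this one. In GRCm38, Tnf (ENSMUSG00000024401.14) lies on the minus strand of chromosome 17 at 35199381 to 35202007. Tnfrsf1a (ENSMUSG00000030341.17) lies on the plus strand of chromosome 6 at 125349362 to 125362484. On chromosome 4, Tnfrsf1b (ENSMUSG00000028599.10) lies on the minus strand at 145213463 to 145246870, and Tnfrsf9 (ENSMUSG00000028965.13) on the plus strand at 150914562 to 150946102. Traf2 (ENSMUSG00000026942.13) lies on the minus strand of chromosome 2 at 25517982 to 25546940. Camta1 overlaps Tnfrsf9 and the processed pseudogene Gm13433 overlaps Traf2, each on the opposite strand; whether the counting used strand is not given in the sources used here, so reads of the overlapping parts may not be separated.

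Tnf and Tnfrsf9 were the 2 genes with the largest increases, and their promoters are shown for that reason. Each window runs from 250 bases before to 50 bases after a RefSeq start site of GRCm38.p6, written 5′ to 3′ on the gene's strand, and capitals mark the motif matches described after the sequences. The Tnf window is chr17:35201958-35202257 on the minus strand. Tnfrsf9 has 2 start sites 7844 bases apart, with windows at chr4:150919905-150920204 and chr4:150927749-150928048 on the plus strand.
Tnf promoter: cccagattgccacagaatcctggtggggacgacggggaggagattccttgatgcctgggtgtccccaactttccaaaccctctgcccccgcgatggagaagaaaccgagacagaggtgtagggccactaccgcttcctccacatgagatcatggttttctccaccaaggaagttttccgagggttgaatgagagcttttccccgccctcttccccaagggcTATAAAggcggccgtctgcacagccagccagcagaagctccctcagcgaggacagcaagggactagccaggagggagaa
Tnfrsf9 promoter 1: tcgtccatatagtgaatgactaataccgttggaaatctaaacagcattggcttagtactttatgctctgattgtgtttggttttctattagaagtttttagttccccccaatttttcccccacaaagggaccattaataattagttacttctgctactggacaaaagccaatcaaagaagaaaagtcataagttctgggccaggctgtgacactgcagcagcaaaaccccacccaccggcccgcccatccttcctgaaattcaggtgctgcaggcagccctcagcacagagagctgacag
Tnfrsf9 promoter 2: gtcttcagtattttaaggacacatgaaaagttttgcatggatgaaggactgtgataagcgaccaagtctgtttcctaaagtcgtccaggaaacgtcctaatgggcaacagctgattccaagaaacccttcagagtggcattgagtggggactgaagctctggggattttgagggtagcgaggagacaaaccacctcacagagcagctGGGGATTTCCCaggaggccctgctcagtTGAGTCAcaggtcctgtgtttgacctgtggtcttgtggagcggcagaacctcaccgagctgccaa
A TATA box (TATAAA) matched in the Tnf window from position -29 to -24 relative to the start site. In Tnfrsf9 promoter 2, the NF-kB consensus matched at 2 overlapping positions, GGGGATTTCC from -43 to -34 and GGGATTTCCC from -42 to -33, and an AP-1 motif (TGANTCA) matched as TGAGTCA from -15 to -9. Both strands were searched for these 3 motifs and for the cyclic AMP response element (TGACGTCA). Tnfrsf9 promoter 1 and the windows of Tnfrsf1a, Tnfrsf1b and Traf2 held none of these letters. Of 32851 promoter windows of the same length, 8.46% held the NF-kB consensus, 13.6% TATAAA, 7.81% TGANTCA and 1.79% TGACGTCA, and a match describes the sequence only.

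Exposure raised Tnf and Tnfrsf9 most, while Tnfrsf1a, Tnfrsf1b and Traf2 stayed within 22.8% of their untreated means. A gene is called changed here when its adjusted p in limma's fit of all 15 libraries was under 0.05, after Benjamini-Hochberg adjustment over all genes tested. Log2 fold changes are differences of log2(FPKM + 1), a scale that understates the change of low genes. With riebeckite asbestos, 3 of the 5 genes were called, all higher (Tnf, Tnfrsf9 and Traf2); of all genes tested, 45.3% were called and 21% were called higher. With riebeckite fragments 1 gene was called (Tnfrsf9, higher), beside 38.4% of all genes called and 15.3% higher. With tremolite asbestos 3 genes were called, all higher (Tnf, Tnfrsf9 and Tnfrsf1b), beside 23.9% called and 10% higher. With tremolite fragments the same 3 rose and Tnfrsf1a fell, beside 27.5% called, 12.5% higher and 15% lower. The limma F test over the 5 groups called 3 of the 5 genes (Tnf, Tnfrsf1b and Tnfrsf9), beside 47.7% of all genes. In these bulk libraries, fewer cells of a type and less RNA per cell cannot be told apart. The summed level of 2 neutrophil markers, S100a8 and Cxcr2, was 28.2 to 33.8 FPKM in untreated libraries and 36.3 to 72.1 FPKM in exposed ones. With tremolite fragments the rise lay in Cxcr2 (2.51 to 10.2 FPKM), as S100a8 was 27.8 FPKM in untreated cells and 28.1 FPKM there. The dendritic cell marker Clec9a was also higher in every exposed library. The part of these markers in the results was not tested.

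**Figure D1:**
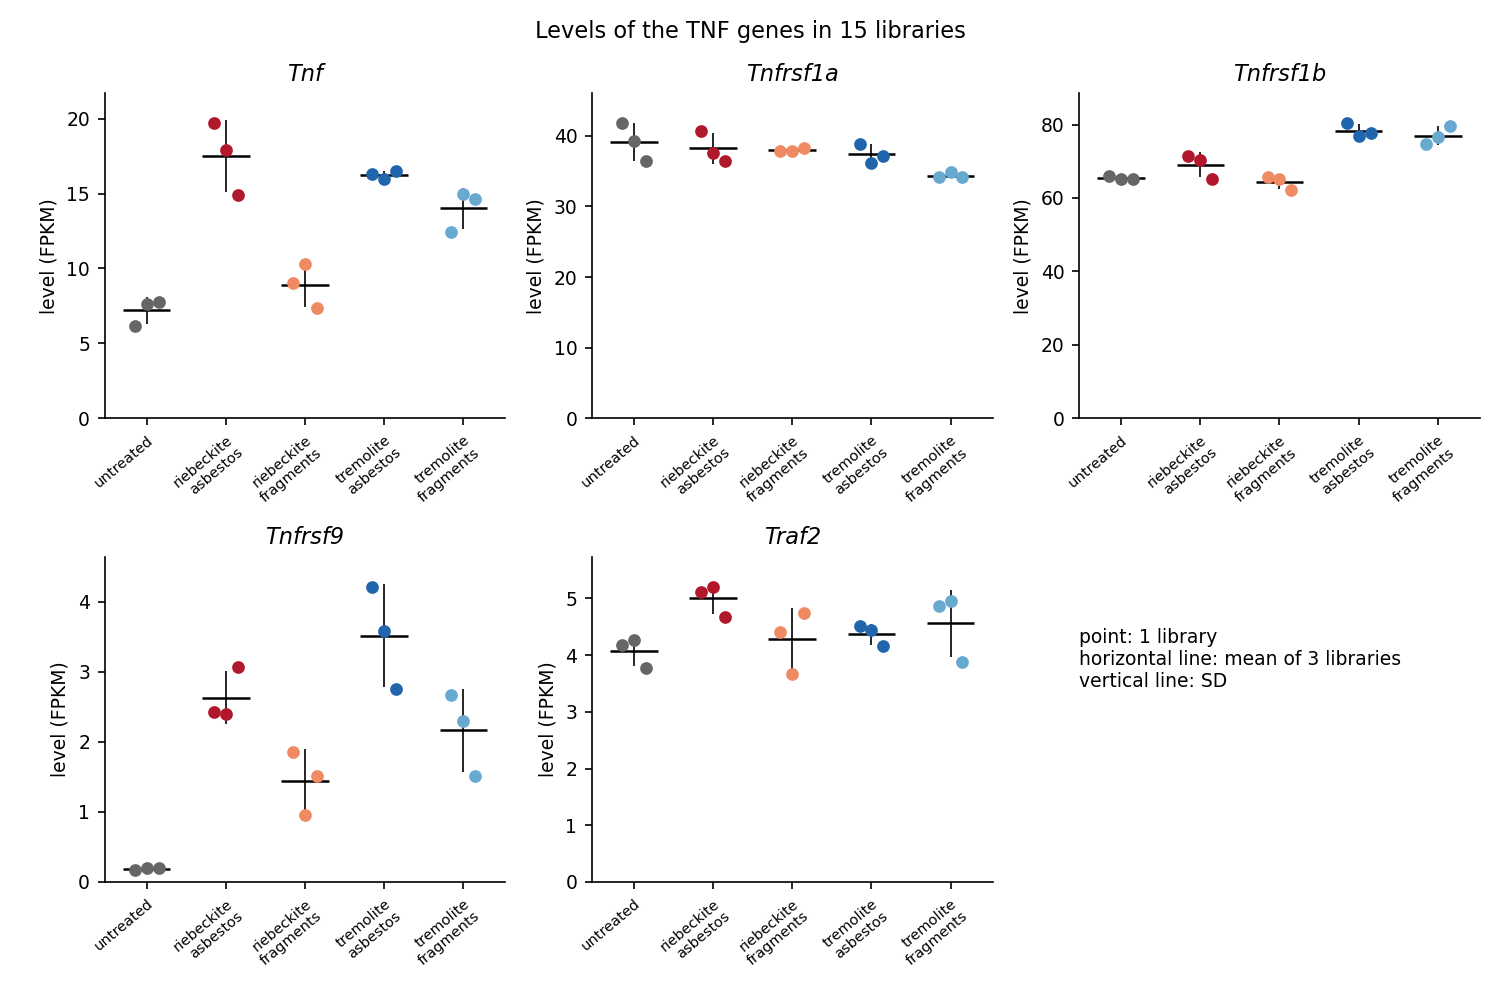
Level in FPKM (vertical axes from 0) of the 5 genes in the 15 libraries, by group (horizontal axes); points are libraries, horizontal lines means and vertical lines SDs of 3 libraries. Tnf and Tnfrsf9 are lowest in untreated cells, and Tnfrsf1b is higher in both tremolite groups than in the other 3.

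The mean Tnf level was 1.94 to 2.43 times that of untreated cells with 3 of the 4 particles and 1.23 times with riebeckite fragments. The untreated libraries had 6.19, 7.64 and 7.79 FPKM. With riebeckite asbestos the libraries had 19.7, 17.9 and 14.9 FPKM, a mean of 17.5 ± 2.4 (SD, n = 3) against 7.21 ± 0.884 in untreated cells. With tremolite asbestos they had 16.3, 16 and 16.5 FPKM, and with tremolite fragments 12.4, 15 and 14.6 FPKM. No library of these 3 groups overlapped the untreated ones. With riebeckite fragments the libraries had 9, 10.3 and 7.38 FPKM, so the lowest of them lay among the untreated libraries. The log2 fold change from untreated was 1.17 with riebeckite asbestos (SE 0.119, adjusted p = 3.8e-06, limma), 1.08 with tremolite asbestos (adjusted p = 2.29e-05) and 0.87 with tremolite fragments (adjusted p = 0.000111). With riebeckite fragments it was 0.26 (95% interval 0.01 to 0.52, adjusted p = 0.0981), and without the third riebeckite fragment library it was 0.38 (adjusted p = 0.0249). Ranked by log2 fold change among 10616 genes, Tnf was number 123 from the top with riebeckite asbestos, 55 with tremolite asbestos, 110 with tremolite fragments and 1300 with riebeckite fragments.

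Tnf differed between the 2 forms of riebeckite. Riebeckite asbestos gave 1.97 times the mean Tnf level of riebeckite fragments (log2 difference 0.90, SE 0.119, adjusted p = 0.000645, limma), with no overlap between libraries; ranked by that difference Tnf was number 13 from the top. Tremolite asbestos gave 1.17 times the level of tremolite fragments, a log2 difference of 0.21 (95% interval -0.04 to 0.47, adjusted p = 0.578), although these libraries did not overlap either. The difference between those 2 differences was 0.69 (SE 0.168, adjusted p = 0.0392, limma). That call was lost without any 1 of 9 of the 12 exposed libraries, where the adjusted p reached 0.101 and the value ran from 0.58 to 0.71. Between minerals, the asbestos forms were not called different in Tnf (log2 difference 0.09, 95% interval -0.17 to 0.34, adjusted p = 0.646), and riebeckite fragments gave less than tremolite fragments (-0.61, adjusted p = 0.00569). The order of the group means was riebeckite asbestos, tremolite asbestos, tremolite fragments, riebeckite fragments and untreated. In that order the only neighbours whose difference was called were the tremolite and the riebeckite fragments.

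Tnfrsf9 had the largest relative rise of the 5 genes, from a level near the bottom of the table. Its untreated libraries had 0.165, 0.202 and 0.198 FPKM. Only 0.544% of the 10653 genes measured, itself included, had an untreated mean at or below its own. Riebeckite asbestos libraries had 2.43, 2.4 and 3.07 FPKM and riebeckite fragment libraries 1.85, 0.956 and 1.52 FPKM. Tremolite asbestos libraries had 4.22, 3.58 and 2.75 FPKM and tremolite fragment libraries 2.67, 2.3 and 1.52 FPKM. Every exposed library was above every untreated one. The ratio of mean FPKM to that of untreated cells was 14 with riebeckite asbestos, 7.66 with riebeckite fragments, 18.7 with tremolite asbestos and 11.5 with tremolite fragments. On the log2(FPKM + 1) scale the differences were 1.61 (SE 0.161, adjusted p = 3.39e-06, limma), 1.02 (adjusted p = 0.00024), 1.91 (adjusted p = 2.25e-06) and 1.39 (adjusted p = 2.68e-05). With a pseudocount of 0.1 in place of 1 the same differences were 3.24, 2.38, 3.63 and 2.94. All 4 calls were also made with no filter on low values. However, every deposited gene already reached 0.5003 FPKM in its highest group mean. That rerun therefore does not remove the selection of Tnfrsf9 through its exposed groups. At untreated levels this low, where counts are unknown, the size of the ratios is uncertain.

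Both asbestos forms had more Tnfrsf9 than the fragments of the same mineral. The log2 difference was 0.59 for riebeckite (SE 0.161, adjusted p = 0.0367, limma) and 0.52 for tremolite (95% interval 0.17 to 0.87, adjusted p = 0.2), and within each mineral the libraries did not overlap. Averaged over both minerals the difference was 0.55 (SE 0.114, adjusted p = 0.0153), and it did not differ between them beyond its error (0.07, 95% interval -0.43 to 0.56, adjusted p = 0.909). The riebeckite call was lost without any 1 of 5 libraries: the 3 of asbestos (adjusted p = 0.0715, 0.0637 and 0.113) and the second and the third of fragments (0.134 and 0.0659). It was also lost with only the riebeckite groups in the fit (0.59, adjusted p = 0.0907). With genes as sums of transcripts neither the riebeckite call (0.88, adjusted p = 0.0616) nor the call over both minerals (0.60, adjusted p = 0.104) was made. Tremolite asbestos had the highest mean (3.52 ± 0.741), followed by riebeckite asbestos (2.63 ± 0.382), tremolite fragments (2.16 ± 0.587), riebeckite fragments (1.44 ± 0.451) and untreated cells (0.188 ± 0.0205; all FPKM, SD, n = 3). Neighbouring exposed groups in that order overlapped in their libraries. Neither the asbestos forms (log2 difference -0.31, adjusted p = 0.186) nor the fragments (-0.37, adjusted p = 0.163) of the 2 minerals were called different.

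**Figure D2:**
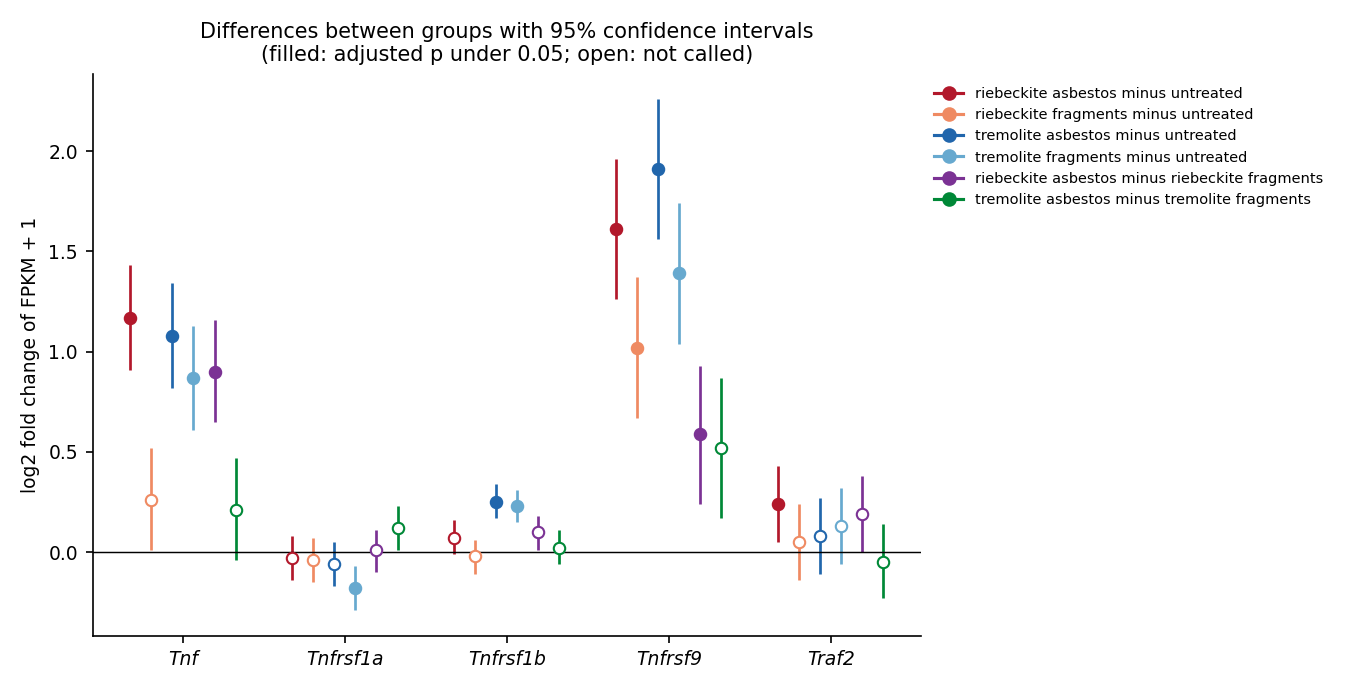
Differences on the log2(FPKM + 1) scale (vertical axis) for the 5 genes (horizontal axis) in 6 comparisons, with 95% intervals; filled points have an adjusted p under 0.05. Tnf shows a large gap between riebeckite asbestos (1.17) and riebeckite fragments (0.26), and Tnfrsf9 is above 1 with each of the 4 particles.

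The TNF receptor genes were among the more abundant transcripts, and their changes were small. In untreated cells Tnfrsf1b had 65.5 ± 0.504 FPKM, at or above 94% of the genes measured, and Tnfrsf1a had 39.1 ± 2.72 FPKM, at or above 89.2%. Tnfrsf1b was higher with tremolite in both of its forms. Untreated libraries had 66, 65.3 and 65.1 FPKM and tremolite asbestos libraries 80.4, 76.8 and 77.7 FPKM. Tremolite fragment libraries had 74.7, 76.7 and 79.6 FPKM. All 6 tremolite libraries were above the 9 others: riebeckite asbestos libraries had 71.5, 70.4 and 65.1 FPKM and riebeckite fragment libraries 65.8, 65.3 and 62.1 FPKM. Tnfrsf1b rose by 0.25 on the log2 scale with tremolite asbestos (SE 0.0382, adjusted p = 0.000323, limma) and by 0.23 with tremolite fragments (adjusted p = 0.000536). With riebeckite asbestos the difference from untreated was 0.07 (95% interval -0.01 to 0.16, adjusted p = 0.135), which became 0.11 (adjusted p = 0.0229) without the third riebeckite asbestos library. With riebeckite fragments it was -0.02 (95% interval -0.11 to 0.06, adjusted p = 0.672). The direct differences between minerals were -0.18 for the asbestos forms (riebeckite minus tremolite, adjusted p = 0.00386) and -0.25 for the fragments (adjusted p = 0.000945). Asbestos and fragments differed by 0.10 within riebeckite (adjusted p = 0.13) and by 0.02 within tremolite (adjusted p = 0.882); the riebeckite value was 0.14 (adjusted p = 0.0369) without the third riebeckite asbestos library.

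Tnfrsf1a moved in 1 comparison with untreated cells only. Its libraries had 41.8, 39.2 and 36.4 FPKM in untreated cells and 34.2, 34.8 and 34.1 FPKM with tremolite fragments. These groups did not overlap, and the mean fell by 12.2% (log2 difference -0.18, SE 0.0499, adjusted p = 0.0157, limma). Without the first untreated library the difference was -0.13 (adjusted p = 0.0698). Riebeckite asbestos libraries had 40.7, 37.5 and 36.4 FPKM, riebeckite fragment libraries 37.9, 37.8 and 38.2 FPKM, and tremolite asbestos libraries 38.9, 36.1 and 37.2 FPKM. These 3 groups overlapped the untreated libraries, with log2 differences of -0.03, -0.04 and -0.06 (adjusted p = 0.628, 0.573 and 0.418), so the group means other than tremolite fragments ran in a narrow order from 39.1 down to 37.4 FPKM. Over all 5 groups the limma F test gave an adjusted p of 0.0562.

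The balance of the receptor messages followed from these 2 patterns. The ratio of Tnfrsf1b to Tnfrsf1a in FPKM was 1.58, 1.67 and 1.79 in the untreated libraries. It was 2.07, 2.13 and 2.09 with tremolite asbestos and 2.19, 2.2 and 2.34 with tremolite fragments, all above every untreated value. The means were 1.68 ± 0.105 in untreated cells, 1.81 ± 0.0617 with riebeckite asbestos, 1.7 ± 0.0613 with riebeckite fragments, 2.09 ± 0.0317 with tremolite asbestos and 2.24 ± 0.0813 with tremolite fragments (SD, n = 3). Exact two-sided permutation tests against untreated cells gave p = 0.2, 0.9, 0.1 and 0.1 in that order, and 0.1 is the smallest p that 3 libraries against 3 allow. The tests are unadjusted, and none could pass the threshold.

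Traf2 was low and varied little. Untreated libraries had 4.17, 4.26 and 3.78 FPKM and riebeckite asbestos libraries 5.12, 5.21 and 4.68 FPKM, which did not overlap. The log2 difference was 0.24 (SE 0.0872, adjusted p = 0.0369, limma). It was lost without any 1 of the 3 untreated libraries (adjusted p = 0.0591, 0.0501 and 0.127 in the order above) and without the first or the second riebeckite asbestos library (0.0949 and 0.104). It was also lost when the libraries were rescaled to the genes of the nuclear genome (0.20, adjusted p = 0.0839). Riebeckite asbestos libraries had the lowest share of FPKM in 13 genes of the mitochondrial genome, 6.08% to 6.9%, against 7.45% to 8.86% in the other groups; its part in the Traf2 result beyond that rescaling was not tested. Riebeckite fragments (4.41, 3.67 and 4.75 FPKM), tremolite asbestos (4.51, 4.44 and 4.16 FPKM) and tremolite fragments (4.86, 4.95 and 3.88 FPKM) overlapped the untreated libraries. Their log2 differences were 0.05, 0.08 and 0.13 (adjusted p = 0.679, 0.546 and 0.314), and the group means ran from 5 FPKM with riebeckite asbestos through tremolite fragments, tremolite asbestos and riebeckite fragments to 4.07 FPKM in untreated cells.

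Set side by side, riebeckite asbestos and fragments differed in 2 of the 5 genes (Tnf and Tnfrsf9, both higher with asbestos), where 10.6% of all genes tested were called and 6.71% were higher. Tremolite asbestos and fragments differed in 0 of the 5 by limma, where 0.942% of all genes were called; 2 of the 5 (Tnfrsf1a and Tnfrsf9) had an unadjusted p under 0.05, and 3 (these and Tnf) had libraries that did not overlap, as did 17% of all genes. Between the asbestos forms of the 2 minerals 1 of the 5 was called (Tnfrsf1b, lower with riebeckite; 26.5% of all genes called, 11% lower), and between the fragments 2 (Tnf and Tnfrsf1b, both lower with riebeckite; 11.3% called, 6.01% lower). Averaged over both minerals, asbestos and fragments differed in 2 of the 5 (Tnf, by 0.56, and Tnfrsf9, both higher with asbestos; 5.37% of all genes called, 2.7% higher). The effect of form differed between minerals in 1 of the 5 (Tnf, more with riebeckite; 3.93% called, 2.65% higher). Leaving out 1 library moved the number of all genes called from 1121 to as few as 644 between the riebeckite forms, from 100 to 31 between the tremolite forms, from 1202 to 717 between the fragments, from 570 to 354 over both minerals and from 417 to 210 for the difference between minerals. The comparisons with untreated cells share the same 3 untreated libraries and are not independent of each other.

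The 5 genes had 9 protein-coding transcripts in the transcript table, which was tested by a fit of its own over 22038 transcripts. Tnf-201, the single Tnf transcript with 4 exons, had log2 differences from untreated of 1.17, 1.08 and 0.84 where called, beside 1.17, 1.08 and 0.87 for the gene. Tnfrsf1b-201, with 10 exons, was called in both tremolite groups (0.25 and 0.23). Tnfrsf1a-201 was not called with tremolite fragments (-0.19, adjusted p = 0.0597, limma), where the gene was. It was called under some alternatives, such as rescaling to nuclear genes (adjusted p = 0.0379). Neither Traf2-201 (0.42, adjusted p = 0.22) nor Traf2-202 (0.15, adjusted p = 0.624) was called with riebeckite asbestos, where the gene was. With riebeckite asbestos 2 of 9 transcripts were called (13% of all transcripts), with riebeckite fragments 0 (10.3%), with tremolite asbestos 3 (5.02%) and with tremolite fragments 3 (6.29%), all higher. For the count of 0 by limma, 2 of the 9 had an unadjusted p under 0.05. Riebeckite asbestos and fragments differed in 1 transcript (Tnf-201; 1.28% of all transcripts) and the tremolite forms in 0 (0.123%), with 2 of 9 at an unadjusted p under 0.05.

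Among the Tnfrsf9 transcripts, calls were made for 1 that starts near the downstream promoter. Tnfrsf9-208 has 6 exons and starts 81 bases upstream of the start site of promoter 2, so the NF-kB and AP-1 matches of that window lie downstream of this transcript's own start. Its untreated libraries were listed at 0, 0 and 0.314 FPKM. Riebeckite asbestos libraries had 4.25, 3.67 and 4.87 FPKM, riebeckite fragment libraries 0.917, 1.46 and 2.45 FPKM, tremolite asbestos libraries 7.54, 1.57 and 2.5 FPKM, and tremolite fragment libraries 4.35, 2.61 and 2.94 FPKM. All 12 exposed libraries were above the untreated ones. The log2 difference was 2.26 with riebeckite asbestos (SE 0.373, adjusted p = 0.00131, limma), 1.96 with tremolite asbestos (adjusted p = 0.00886) and 1.95 with tremolite fragments (adjusted p = 0.00718), and 1.21 with riebeckite fragments (adjusted p = 0.065). This transcript passed the filter on low values only through the exposed groups. With no filter the same 3 calls were made (adjusted p = 0.00134, 0.00916 and 0.0074, limma). Whether the deposited transcripts had already been selected by level is unknown. With a pseudocount of 0.1 the riebeckite fragment difference was 3.31 (adjusted p = 0.00448). Tnfrsf9-205, with 8 exons and its start at promoter 2, had untreated libraries between 0.0493 and 0.212 FPKM and group means of 0.911 to 1.43 FPKM after exposure. Its differences of 0.65 to 1.01 were not called; without the second tremolite asbestos library the tremolite asbestos value was 1.39 (adjusted p = 0.0374). Tnfrsf9-204, with 7 exons and its start at promoter 1, was listed at 0 in all 3 untreated libraries and in 3 of the 12 exposed ones, and reached 2.61 FPKM in the second tremolite asbestos library; none of its differences was called, although the tremolite asbestos value was 1.39 (adjusted p = 0.0298) without the third tremolite asbestos library. Tnfrsf9-208 is 722 bases long, against 2115 for Tnfrsf9-205 and 1999 for Tnfrsf9-204. FPKM is scaled to length, so its higher values do not mean that more fragments came from it. Levels of these overlapping transcripts were assigned by the authors' software, and single libraries differed several-fold within a group.

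**Figure D3:**
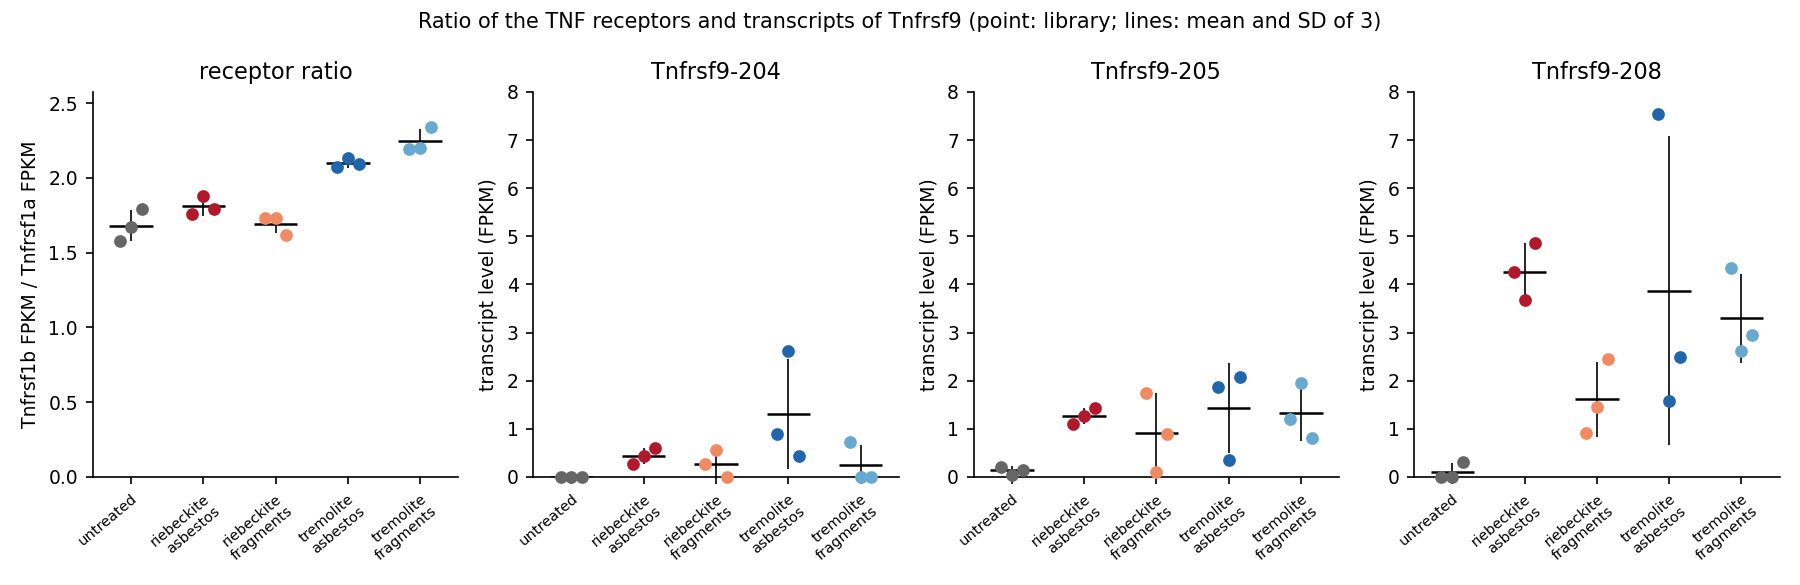
Left, ratio of Tnfrsf1b to Tnfrsf1a in FPKM; right, levels in FPKM of 3 Tnfrsf9 transcripts (vertical axes from 0), by group; points are libraries, horizontal lines means and vertical lines SDs of 3 libraries. The ratio is above 2 in all tremolite libraries, and Tnfrsf9-208 is the highest of the 3 transcripts in most exposed libraries.

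Genes around the TNF pathway were described with 9 lists of 121 genes in all, the 5 genes above included, of which 90 were tested. With riebeckite asbestos 27 were higher and 17 lower, a share of 48.9% called against 45.3% of all genes. Riebeckite fragments gave 18 higher and 16 lower (37.8% against 38.4%). Tremolite asbestos gave 24 higher and 9 lower (36.7% against 23.9%), and tremolite fragments 26 higher and 8 lower (37.8% against 27.5%). Of all genes tested, 21%, 15.3%, 10% and 12.5% were called higher with these particles in the order above. A list below whose counts lie near the shares of all genes does not stand out from them. The median log2 difference over the 90 genes was 0.05, -0.01, 0.04 and 0.02 in that order, beside -0.017, -0.044, -0.033 and -0.023 over all genes tested. Riebeckite asbestos and fragments differed in 21 of the 90 genes, 17 of them higher with asbestos (23.3% against 10.6%), and the tremolite forms in 0 by limma, with 14 at an unadjusted p under 0.05.

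Among ligands of the TNF superfamily, 5 were tested and none fell. With riebeckite asbestos 3 rose (21% of all genes), with riebeckite fragments 3 (15.3%), with tremolite asbestos 3 (10%) and with tremolite fragments 4 (12.5%). Tnfsf12, which encodes TWEAK, rose from 33.3 ± 2.97 FPKM to between 42.5 and 48.5 FPKM in the group means (log2 differences 0.53, 0.34, 0.35 and 0.42 for riebeckite asbestos, riebeckite fragments, tremolite asbestos and tremolite fragments, the order used from here on). Without the second untreated library the riebeckite fragment and tremolite asbestos values were both 0.27 (adjusted p = 0.0511 and 0.0725), and the tremolite asbestos call was also lost without the first or second tremolite asbestos library (0.0667 and 0.0564). Tnfsf15, which encodes TL1A, rose from 0.334 ± 0.0368 FPKM to between 0.587 and 0.984 FPKM (0.57, 0.25, 0.37 and 0.30); the riebeckite fragment call was lost without the first untreated or the third fragment library (adjusted p = 0.0528 and 0.0584). Tnfsf15 too was under 0.5 FPKM in every untreated library and passed the filter only through the exposed groups. With no filter its 4 calls were also made, but every deposited gene already reached 0.5003 FPKM in its highest group mean. The selection of Tnfsf15 through its exposed groups therefore remains, and the counts of ligands above include it with each particle. Tnfsf8, the CD30 ligand, was called with riebeckite fragments (0.51) and, at an adjusted p of 0.0486, with tremolite fragments (0.28), a call that was lost without 5 of the 6 libraries compared (adjusted p up to 0.194) and under 5 other alternatives (0.0538 to 0.0882). With riebeckite asbestos and tremolite asbestos its differences were both 0.24 (adjusted p = 0.0636 and 0.0952, limma). The riebeckite asbestos value was called without the first untreated or the first riebeckite asbestos library (adjusted p = 0.0364 and 0.0293). The tremolite asbestos value was called without the first tremolite asbestos library (adjusted p = 0.026).

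Of 16 receptors tested, 5, 4, 6 and 5 rose and 4 fell with each particle. The counts of those that rose include Tnfrsf9, which passed the filter on low values only through the exposed groups. In either direction, 45.3%, 38.4%, 23.9% and 27.5% of all genes were called. The shares of all genes called higher were 21%, 15.3%, 10% and 12.5%. Tnfrsf26, a receptor gene of the family, rose from 22.3 ± 0.256 FPKM to between 33.7 and 41.8 FPKM (0.88, 0.70, 0.58 and 0.58). Tnfrsf13b, which encodes the BAFF and APRIL receptor TACI, fell from 15.9 ± 0.934 FPKM to between 8.59 and 11.2 FPKM (-0.82, -0.47, -0.47 and -0.57). Relt, another of its receptors, fell from 13 ± 0.0701 FPKM to between 8.37 and 9.36 FPKM (-0.58, -0.57, -0.50 and -0.43). Tnfrsf12a, which encodes the TWEAK receptor Fn14, is named after its values were seen: it rose from 6.81 ± 0.565 FPKM to 22.6 ± 2, 14.7 ± 2.8, 10.9 ± 0.694 and 13.3 ± 1.92 FPKM (1.59, 1.00, 0.61 and 0.86; SD, n = 3).

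Of 12 TRAF and adaptor genes tested, 6, 2, 3 and 4 rose and 2, 2, 1 and 1 fell. Among these, Traf4 was under 0.5 FPKM in every untreated library (0.431 to 0.462 FPKM). It passed the filter on low values only through the exposed groups. In either direction, 45.3%, 38.4%, 23.9% and 27.5% of all genes were called. Among all genes, 21%, 15.3%, 10% and 12.5% were called higher. Traf6, the ubiquitin ligase of the Toll-like and IL-1 receptor pathways, rose from 8.46 ± 0.256 FPKM to between 10.8 and 12.4 FPKM (0.50, 0.31, 0.49 and 0.39). Tank, a TRAF-binding adaptor, rose from 10.5 ± 0.618 FPKM to between 13.8 and 15 FPKM (0.48, 0.41, 0.36 and 0.38). Traf3ip3 fell in the gene table (-0.59, -0.46, -0.39 and -0.46), but its values as sums of transcripts were 0.33, 0.05 and 0.37 in the last 3 groups, so its direction there is uncertain, and -0.53 (adjusted p = 0.314) with riebeckite asbestos. Birc3, which encodes the ubiquitin ligase cIAP2 and is named after its values were seen, rose with 3 particles (0.46, 0.41 and 0.36), and its difference with riebeckite fragments was 0.14 (adjusted p = 0.197).

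Inhibitors of TNF signalling moved in both directions: of 11 tested, 5, 3, 4 and 4 rose and 2, 2, 2 and 1 fell. In either direction, 45.3%, 38.4%, 23.9% and 27.5% of all genes were called. The shares of all genes called higher were 21%, 15.3%, 10% and 12.5%. Tnip1, a partner of A20 that restrains NF-kB, rose from 24.3 ± 1.15 FPKM to 44.2 ± 5.27, 33.8 ± 1.4, 38.1 ± 1.9 and 37.5 ± 1.93 FPKM (0.83, 0.46, 0.63 and 0.61). Optn, a ubiquitin-binding protein gene, rose from 16.2 ± 0.319 FPKM to between 20 and 23.4 FPKM (0.51, 0.38, 0.31 and 0.29). N4bp1 was called with 3 particles (0.19, 0.33 and 0.30) and was at 0.05 with riebeckite fragments. Tnfaip3, which encodes A20 itself and is named after its values were seen, rose from 1.94 ± 0.246 FPKM to 6.58 ± 1.76, 4.12 ± 0.491, 4.88 ± 1.15 and 4.87 ± 1.27 FPKM (1.34, 0.80, 0.98 and 0.98; SD, n = 3).

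Enzymes and death proteins act downstream of the receptors. Of 15 genes of ubiquitin and kinase steps, 2, 2, 1 and 2 rose and 4, 4, 2 and 2 fell. In either direction, 45.3%, 38.4%, 23.9% and 27.5% of all genes were called. Among all genes, 21%, 15.3%, 10% and 12.5% were called higher. Map3k8, the kinase Tpl2 that activates ERK downstream of TNF and Toll-like receptors, fell from 13.4 ± 0.219 FPKM to 8.96, 10, 11.8 and 11.8 FPKM (-0.53, -0.38, -0.16 and -0.17). Ikbkb, the NF-kB-activating kinase IKK-beta, was lower with both forms of riebeckite (-0.24 and -0.21), but in sums of transcripts these were -0.17 (adjusted p = 0.688) and 0.12 (adjusted p = 0.798). Mapkapk2, which encodes the kinase MK2 that acts on the stability and translation of TNF mRNA, was called with riebeckite asbestos (0.25) and tremolite asbestos (0.17) and was at -0.06 and 0.05 with the fragments (adjusted p = 0.363 and 0.504). Its tremolite asbestos call was lost without the second or the third untreated library or the first or the third tremolite asbestos library (adjusted p up to 0.112). Of 7 genes of the death complex, 2, 1, 3 and 2 rose, beside 21%, 15.3%, 10% and 12.5% of all genes, and none fell. Cflar, which encodes the caspase-8 inhibitor c-FLIP, rose with 3 particles (0.43, 0.30 and 0.28), and its difference with riebeckite fragments was 0.10 (adjusted p = 0.223). Casp8 itself was called with tremolite asbestos only (0.15). Its riebeckite asbestos value of -0.06 (adjusted p = 0.143, limma) was called lower after rescaling to nuclear genes (-0.11, adjusted p = 0.0272). Ripk3, the kinase of necroptosis, was called with all 4 (0.20, 0.27, 0.26 and 0.30) at levels of 3.4 to 4.43 FPKM; the riebeckite asbestos call was lost without the first or the third library of either untreated cells or riebeckite asbestos (adjusted p up to 0.161), and the tremolite asbestos call without the first or the third untreated or the third tremolite asbestos library (up to 0.081). With only the groups compared in the fit, the Ripk3 calls with riebeckite asbestos and riebeckite fragments were lost (0.0649 and 0.0586), and the riebeckite asbestos call was also lost after rescaling to nuclear genes (0.15, adjusted p = 0.114) and with the replicate number as a block (0.0596).

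Genes that act on TNF after transcription were also listed. Of 8 shedding genes tested, 1, 1, 2 and 2 rose and 2, 0, 0 and 0 fell. In either direction, 45.3%, 38.4%, 23.9% and 27.5% of all genes were called. The shares of all genes called higher were 21%, 15.3%, 10% and 12.5%. Rhbdf2, which encodes iRhom2, the partner that brings the TNF-cleaving protease ADAM17 to the cell surface in macrophages, rose from 8.76 ± 0.583 FPKM to 15.2 ± 1.71, 12.3 ± 1.16, 11 ± 0.706 and 12.8 ± 0.164 FPKM (0.73, 0.44, 0.30 and 0.50; SD, n = 3). The tremolite asbestos value was 0.25 without the third untreated library and 0.26 without the second tremolite asbestos library (adjusted p = 0.0633 and 0.0561). Sppl2a, an intramembrane protease that cleaves the membrane stub of TNF, was called with tremolite asbestos (0.20) and tremolite fragments (0.13) and was at -0.01 and 0.04 with riebeckite. The tremolite fragment call was lost without any 1 untreated library or the third fragment library (adjusted p up to 0.119), under quantile normalization (0.0613) and after rescaling to nuclear genes (0.0629). Timp2, which encodes a metalloproteinase inhibitor, fell with riebeckite asbestos (-0.26, adjusted p = 0.000627) and was at -0.02, -0.10 and -0.07 with the other particles. Of 12 genes of TNF mRNA control, 2, 1, 1 and 2 rose and 3, 3, 0 and 0 fell, beside the same shares of all genes. Zc3h12a, which encodes the RNase Regnase-1, rose from 8.87 ± 0.437 FPKM to between 11.8 and 14.9 FPKM (0.69, 0.44, 0.38 and 0.47). Zfp36l2, which encodes a protein that binds AU-rich elements of mRNAs and promotes their decay, fell with riebeckite fragments (-0.18) and was at -0.08, 0.02 and 0.02 with the others; the riebeckite asbestos value was called after rescaling to nuclear genes (-0.13, adjusted p = 0.0271). Khsrp, another gene of AU-rich mRNA decay, was called with riebeckite asbestos (0.17), a call that the same rescaling ended (0.12, adjusted p = 0.0556). Of 4 genes named for induction by TNF, 1 rose with each particle and 1 fell with riebeckite fragments, beside the same shares of all genes. The one that rose was Tnfaip2, called in all groups (0.67, 0.51, 0.37 and 0.34). Its tremolite asbestos call was lost without the first untreated library or the first or the third tremolite asbestos library (adjusted p up to 0.0763), and its tremolite fragment call without any 1 of the 6 libraries compared (up to 0.0698). The one that fell was Tnfaip1 (-0.11, adjusted p = 0.0307). That call was lost without the second or the third untreated library or the first or the second riebeckite fragment library (adjusted p up to 0.121), under TMM rescaling (-0.06, 0.175), quantile normalization (-0.07, 0.132) and sums of transcripts (0.0672), and with only the groups compared (0.0916). Tnfaip8 was not called with any particle (0.09, -0.04, 0.10 and 0.08). With genes as sums of transcripts, calls were also lost for Tnfaip3 (adjusted p = 0.05 and 0.0685), Tank (0.0615 and 0.14) and Map3k8 (0.124 and 0.34) with tremolite asbestos and fragments, for Rhbdf2 (0.113) and Casp8 (0.0528) with tremolite asbestos, for Tnfaip2 with riebeckite asbestos (0.146), riebeckite fragments (0.389) and tremolite fragments (0.577), and for Ripk3 with riebeckite asbestos (0.0585), riebeckite fragments (0.0839) and tremolite asbestos (0.108).

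**Figure D4:**
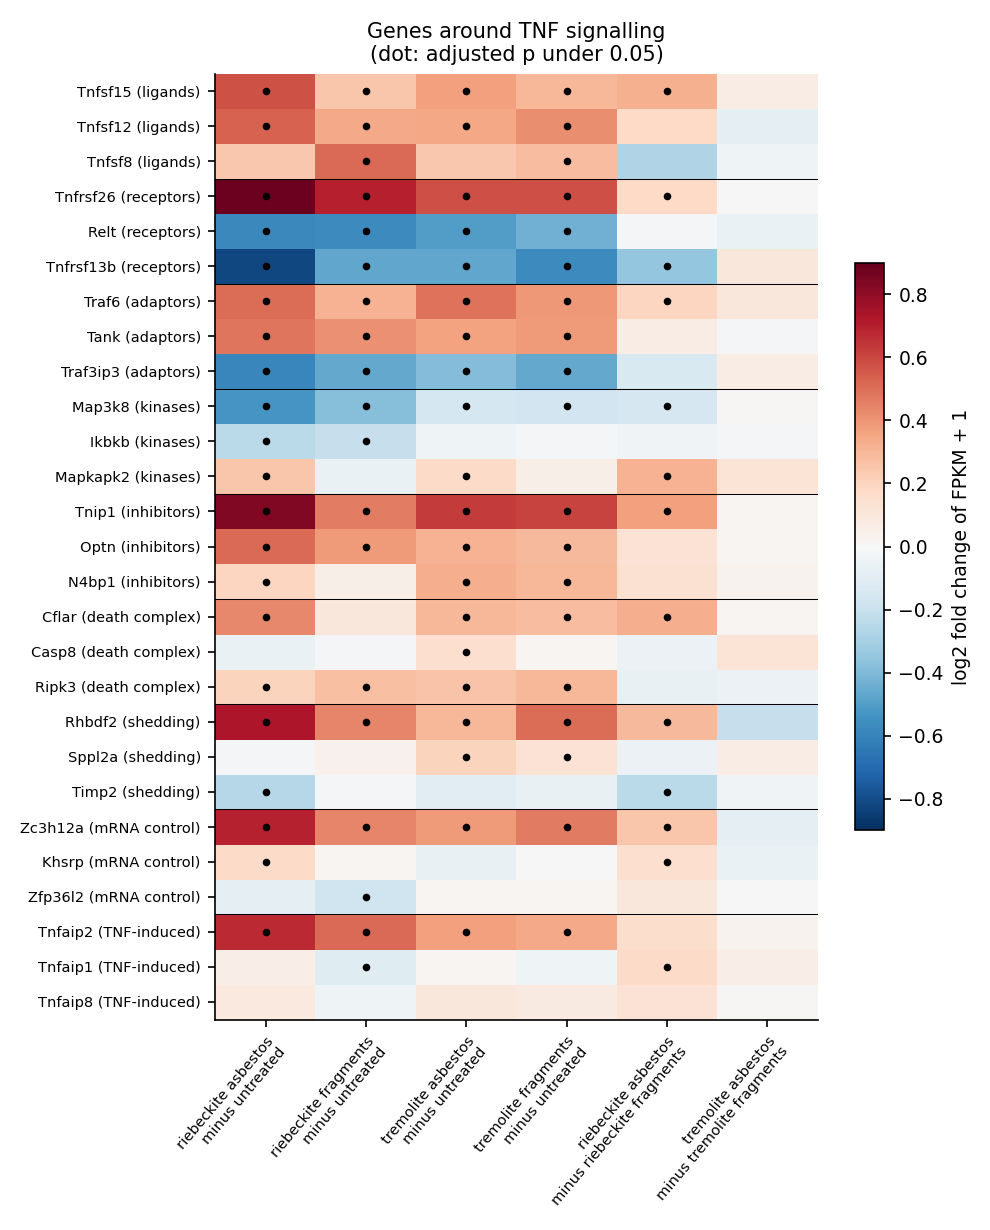
Log2 differences of FPKM + 1 (colour scale) for the 27 pathway genes named by rule (rows, by list) in 6 comparisons (columns); dots mark an adjusted p under 0.05. Among other rows, Tnfrsf26, Tnip1, Zc3h12a and Rhbdf2 are higher with all 4 particles and Tnfrsf13b and Relt lower with all 4. The tremolite form comparison has no dot.

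The genes whose levels ran most like each member were found by Pearson r of log2(FPKM + 1) over the 15 libraries among 9520 genes; the libraries share 5 group means, and r is given as a description. Tnf ran closest to Csf1r, the receptor of the macrophage growth factor CSF-1 (r = 0.957), Clec4e, the pattern receptor Mincle (0.949), Smpdl3b (0.948) and H2-K1, a class I MHC gene (0.945). Clec4e went from 2.25 ± 0.475 FPKM in untreated cells to 8.05 ± 0.461, 3.87 ± 0.462, 8.08 ± 0.469 and 5.27 ± 0.509 FPKM, in the same order of particles as before. Tnfrsf9 ran closest to Emp1 (0.944), Cdc42bpa (0.938), Pik3r5 (0.932) and Id2 (0.932). Tnfrsf1b ran closest to Clic4 (0.926), Endod1 (0.913), Tgfbi (0.911) and Pnrc1 (0.896). Tgfbi, which encodes a secreted matrix protein, went from 3.7 ± 0.107 FPKM to 5.7 ± 0.588, 4.08 ± 0.0733, 11.9 ± 0.896 and 17.9 ± 1.14 FPKM. The best matches were weaker for Tnfrsf1a (Phc2, 0.854; Rps19, 0.854; Akr1b3, 0.848) and Traf2 (Pgk1, 0.859; Tcf25, 0.851; Sh3gl1, 0.85; Kremen1, 0.849), whose group means differed little.

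The libraries were alike in scale, while some cell type markers differed between groups. Their summed FPKM ran from 257329 to 273570, their depth in reads is unknown, and Spearman correlations between libraries of a group were 0.988 to 0.992. All 10 macrophage markers and all 10 alveolar macrophage markers were measured. The macrophage sum was 5120 to 5590 FPKM in untreated libraries, 6230 to 6500 with riebeckite asbestos, 6500 to 6970 with riebeckite fragments, 5390 to 6090 with tremolite asbestos and 5290 to 5660 with tremolite fragments, so every riebeckite library was above every untreated one. Within the macrophage sum the highest marker was Lyz2, with means of 4070 FPKM in untreated cells and 4700 FPKM with riebeckite asbestos. With that particle the means of Cd68, Csf1r, Itgax, Csf2ra and Csf2rb were also higher. Those of Adgre1 (70.3 to 61 FPKM), Fcgr1 (25.7 to 11.4 FPKM), Itgam and Mertk were lower. The alveolar macrophage sum was 4730 to 5120 FPKM with riebeckite asbestos, below the 5440 to 6000 FPKM of all other libraries. The markers of that list moved in both directions. With riebeckite asbestos the means of Chil3 (2630 to 1750 FPKM), Fabp4, Ear2 and Mrc1 were lower than in untreated cells. Those of Siglecf (10.7 to 49.6 FPKM), Marco, Pparg, Car4, Ear1 and Plet1 were higher. The part of these shifts in the results was not tested. Of 8 T cell markers 2 were measured, Cd2 and Lck, and the others, the CD3 genes among them, were not analysed here; their sum was 1.12 to 2.16 FPKM in untreated libraries and 1.3 to 1.87 FPKM in exposed ones. Within that sum Lck was 0.116 ± 0.0462 FPKM in untreated cells and 0.404 to 0.656 FPKM in the exposed group means. Cd2 was 1.56 ± 0.482 FPKM in untreated cells and 0.91 to 1.16 FPKM in the exposed group means. The part of either in the Tnfrsf9 result was not tested. The 2 of 8 neutrophil markers measured summed to 68.3 to 71.4 FPKM with riebeckite asbestos, 68.8 to 72.1 with riebeckite fragments, 37 to 46.1 with tremolite asbestos and 36.3 to 39.8 with tremolite fragments. S100a8 alone was 27.8 ± 3.03 FPKM in untreated cells and 28.1 ± 1.53 FPKM with tremolite fragments. The 1 of 5 dendritic cell markers measured, Clec9a, was at 8.28 to 9.85 FPKM in untreated libraries and 11.1 to 15.9 FPKM in exposed ones. The 2 of 5 epithelial markers, Cdh1 and Krt19, summed to 64.5 to 64.9 FPKM in untreated libraries and 54.2 to 68.5 FPKM in exposed ones. They moved in opposite directions. Cdh1 was 53.3 FPKM in untreated cells and 25.7 to 35.6 FPKM in the exposed group means, and Krt19 was 11.3 and 23.6 to 30.1 FPKM. No marker of the B cell, NK cell, mast cell, hepatocyte, fibroblast and endothelial lists was analysed here.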

How the data were processed

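RNA-seq was made from 15 libraries in 5 groups of 3, with oligo(dT) selection and dUTP-based second-strand synthesis, per the labels' protocols. The submitters' processing notes name cutadapt, HISAT2, StringTie and GRCm38, without versions or roles. The deposited gene and transcript tables hold values taken as FPKM made by the authors; counts were not used here, so depth is unknown and only the number of libraries gives the precision. In the deposited gene table the highest group mean of every gene was at least 0.5003 FPKM, and gene values are not sums of transcript values. All per-sample columns were used. Sequences and start sites come from RefSeq (GRCm38.p6) and GENCODE M21; all 5 genes matched, with 6 promoter entries.

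Genes with at least 0.5 FPKM in at least 3 libraries were tested with limma 3.58.1 (R 4.3.3) on log2(FPKM + 1) using the mean-variance trend; a single fit held all 15 libraries, with group as its only term. Benjamini-Hochberg adjustment ran within each comparison over all genes, with a threshold of 0.05. Scripts were tested on simulated data. The members and lists were chosen with earlier results of these data known. Named genes were the members, the 3 genes of each list with the smallest F test p, and the 4 genes most like each member (mean of at least 1 FPKM), of which 1 is not reported here; genes named outside this rule are marked. Alternatives covered pseudocount, filter, scaling, trend, block, transcript sums, the groups in the fit and each library left out. The replicate numbers were not treated as pairs: 4 of 30 pairs of same-numbered libraries had deviations that correlated above 0.1. Against this, 10 of 15 libraries correlated best with a library of their own number. Whether same-numbered libraries were handled together was not tested.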

Additional observations from a re-analysis of the deposited data

Results flagged for a closer look

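The effect of mineral form on Tnf differed between the minerals by a test of the difference itself: asbestos minus fragments was larger for riebeckite than for tremolite by 0.69 on the log2(FPKM + 1) scale (SE 0.168, adjusted p = 0.0392, limma, 3 libraries a group). The riebeckite difference was 0.90 and the tremolite difference 0.21. All 3 riebeckite fragment libraries (7.38 to 10.3 FPKM) lay below all libraries of the other exposed groups (12.4 to 19.7 FPKM). The test of the difference is close to its threshold and lost its call in the alternatives listed under the processing.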

How the results depend on the processing

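Over the alternatives tried, 807 of 840 values of the 5 genes kept their side of the threshold, 29 lost and 4 gained a call. None that was called reversed. Among the 807, 18 uncalled values changed sign. The cause of the changes below was not tested, except that the filter on a mean of at least 5 FPKM removes Tnfrsf9 and Traf2 from the test. Under that filter the number of members called was 1 with riebeckite asbestos (3), 0 with riebeckite fragments (1), 1 between the riebeckite forms (2) and 1 for asbestos minus fragments over both minerals (2), with the values as reported in parentheses. With genes as sums of transcripts the last 2 counts were 1 and 1, and with only the groups compared in the fit the riebeckite forms gave 1. The count for the interaction was 0 in place of 1 under TMM rescaling (Tnf 0.66, adjusted p = 0.0501), quantile normalization (0.64, 0.0528), sums of transcripts (0.66, 0.0795) and only the groups compared (0.69, 0.0515). Sums of transcripts also moved the receptor ratio's difference from untreated to 0.343 with tremolite asbestos (0.416) and 0.462 with tremolite fragments (0.565), and ended the calls of Tnfrsf9 between the riebeckite forms (0.88, 0.0616) and over both minerals (0.60, 0.104) and of Traf2 with riebeckite asbestos (0.23, 0.158). Tnfrsf1a between the fragments was called with only the groups compared (0.14, adjusted p = 0.0375).

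Leaving out each library in turn, the members called ranged from 2 to 4 with riebeckite asbestos, 1 to 2 with riebeckite fragments, 3 to 3 with tremolite asbestos, 3 to 4 with tremolite fragments, 1 to 2 between the riebeckite forms, 0 to 1 for the interaction and 3 to 4 for any difference, and calls of transcripts from 9 to 12 (9). With the replicate number as a block, a pairing that the labels do not state, 4 members differed among groups (3) and 10 transcript calls were made (9), and 10 of 15 libraries correlated best with one of their own number. Of 2850 values of other pathway genes, 2713 kept their side of the threshold, 123 lost and 9 gained a call, and 5 reversed. Among the 2713, 70 uncalled values changed sign. The 5 reversals were all in sums of transcripts. Ikbkb reversed with riebeckite fragments (0.12) and Map3k8 between the riebeckite forms (0.06). Traf3ip3 reversed with riebeckite fragments (0.33), tremolite asbestos (0.05) and tremolite fragments (0.37). Counts over all genes moved most for the riebeckite forms (1121, to 657 with sums of transcripts and 275 with only the groups compared), the tremolite forms (100, to 43 and 29), the fragments (1202, to 730 and 676), both minerals together (570, to 284 with sums) and the interaction (417, to 198 with sums). Leaving out 1 library gave 644 to 878 for the riebeckite forms (lowest without the first asbestos library; 730 and 665 without the second of asbestos and of fragments), 31 to 92 for the tremolite forms (61 or fewer without any library but the second of asbestos), 717 to 970 for the fragments (782 or fewer without the first riebeckite or any tremolite fragment library), 354 to 547 for both minerals (354 and 378 without the first and the third tremolite fragment library) and 210 to 425 for the interaction (267 or fewer without the first riebeckite asbestos, the second riebeckite fragment, the first or the third tremolite asbestos, or the first or the second tremolite fragment library). Of the pathway genes, those lower with riebeckite fragments went from 16 to 9 and those higher between the riebeckite forms from 17 to 10 with sums of transcripts and 6 with only the groups compared. No rescaling moved the median of all genes by over 0.1. Since depth is unknown, the counting error of low values such as the untreated levels of Tnfrsf9 could not be given.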
